A study of Caenorhabditis elegans with 12 samples.

Results

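Aerobic cells make superoxide and hydrogen peroxide as by-products of respiration. Superoxide dismutases turn superoxide into hydrogen peroxide, catalases split hydrogen peroxide into water and oxygen, and metallothioneins are small cysteine-rich proteins that hold zinc, copper and cadmium. In Caenorhabditis elegans several of these genes, among them sod-3 and mtl-1, are used as reporters of the transcription factor DAF-16, which is active when insulin signalling is low. The 10 genes described here are the 5 superoxide dismutase genes sod-1 to sod-5, the 3 catalase genes ctl-1 to ctl-3 and the 2 metallothionein genes mtl-1 and mtl-2. They were taken by name from a table of 46748 gene identifiers, all 10 were found, and all 10 were among the 14611 genes with enough counts to be tested.

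Poly(A) RNA of whole adult worms was read in 12 libraries, 3 for every combination of 2 strains, wild type N2 and sek-1(km4), and 2 diets, ad libitum feeding (AL) and dietary restriction (DR). The labels call the 3 libraries biological replicates, and the 4 groups are written N2_AL, N2_DR, sek1_AL and sek1_DR. SEK-1 is the MAP kinase kinase upstream of the p38 kinase PMK-1, and the km4 allele carries a deletion in it. All groups grew at 20 °C on Escherichia coli OP50, per the labels' protocols, and from the L4 or young adult stage were kept on plates with antibiotics and 100 mg/L of the progeny-blocking drug fluorodeoxyuridine. On adult day 3 they went into 1 ml of liquid with 10 to 20 worms per well and arrested OP50, whose optical density was 3 under AL and 0.1 under DR. Freezing followed on adult day 6, so that the diet lasted 3 days. The mutant is represented by 1 allele, and no rescued strain is among these groups. In whole animals, fewer cells of a type and less RNA per cell cannot be told apart.

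Total counts were 13673987 to 31675540 per library, and the limit that a count of 0 allows (3 counts) was 0.104 to 0.279 CPM, the TMM-scaled unit used here for levels. N2_AL replicate 3 had the lowest total and stood apart. Its log2 levels changed by −0.58 per doubling of exon length, relative to the mean of all libraries, against 0.08 and 0.07 in the other N2_AL libraries, so short transcripts were high in it. The same slope was −0.11 in N2_DR replicate 3, −0.03 in sek1_AL replicate 3 and −0.04 in sek1_DR replicate 3, and 0.06 to 0.15 in the libraries numbered 1 and 2 of those groups. The metallothionein genes, with exon lengths of 373 and 347 nt, are the shortest members. Tests of the members that use N2_AL are given with and without that library. Log2 fold changes of single genes outside the members are given from all 12 libraries only. The 22 annotated rRNA genes took 47.8% of the counts in N2_AL replicate 2, 45.1% in N2_AL replicate 3, 42.3% in sek1_DR replicate 3 and 30.7% to 35.7% in the other 9 libraries. The part of this in the members' values was not tested. The sek-1 gene itself read 3.72 CPM in N2_AL replicate 3 and 16.4 to 28.5 CPM in the other 11 libraries, with no difference by strain past the threshold. Where the counted exons lie relative to the deletion was not examined, so this level is no check of the labels.

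Per kb of exon, sod-1 had the highest mean level of the members in all 4 groups, from 194 ± 87.3 CPM per kb (SD, n = 3) in N2_AL down to 99.9 ± 5.34 in sek1_DR. The other abundant members were sod-2 (111 ± 40.7 CPM per kb in N2_AL and 56.7 ± 3.91 in sek1_DR) and mtl-1 (161 ± 125 and 48.7 ± 5.32). The 3 catalase genes lay together between 14.7 ± 6.60 (ctl-2 in N2_AL) and 32.2 ± 3.37 CPM per kb (ctl-1 in N2_DR). Within that band the libraries of neighbouring catalase genes overlapped in all groups except sek1_AL, where ctl-2 was below ctl-1. The gene for the secreted enzyme, sod-4, had 4.57 ± 0.50 to 9.37 ± 1.20 CPM per kb. At the bottom in all groups were sod-3 and sod-5, at 0.798 ± 0.296 and 0.474 ± 0.186 CPM per kb in N2_DR, where their libraries overlapped. Several ranks differed between groups. The mean of mtl-1 was above that of sod-2 in both N2 groups, with overlapping libraries, and below it in both mutant groups, with overlap on AL and none on DR. The order of the catalase means differed as well, with ctl-3 first in sek1_AL and ctl-1 first in the other groups. In N2_DR mtl-2 ranked 7 of 10 at 20.2 ± 9.32 CPM per kb, and in sek1_DR it ranked 2 at 67.3 ± 29.6, although its libraries there overlapped those of both neighbours. In sek1_AL sod-3 was above sod-5 with no overlap, and in sek1_DR sod-5 had the higher mean, with overlapping libraries.

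**Figure D1:**
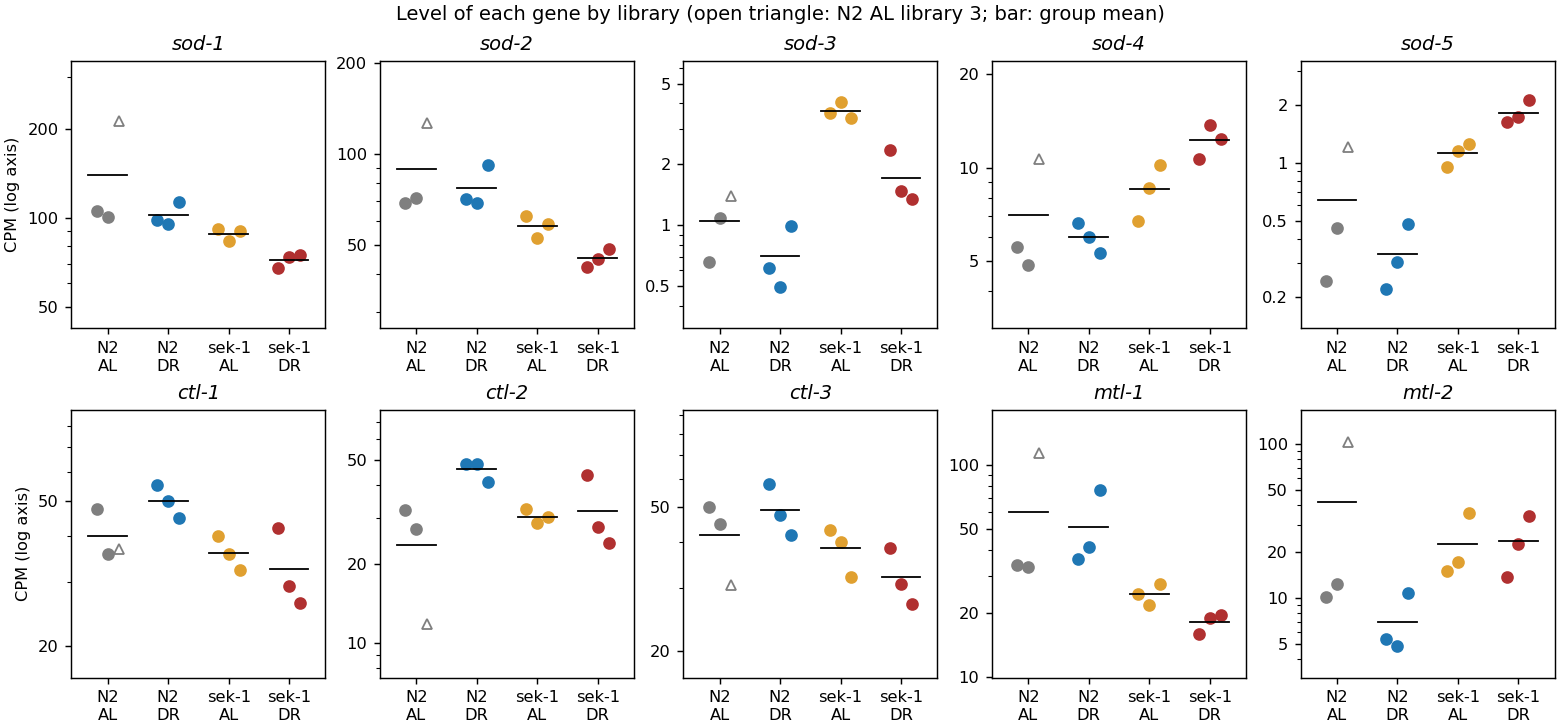
Levels of the 10 members in every library, in CPM on a log scale, 1 panel per gene and 1 column per group of 3 libraries, with each group's mean as a bar; N2_AL replicate 3 has its own marker. In sod-3 all 6 sek-1(km4) libraries sit between 1.35 and 4.04 CPM, and in the 5 sod genes and both mtl genes N2_AL replicate 3 is the highest N2_AL library.

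The manganese enzymes of the mitochondrial matrix are encoded by sod-2, the abundant form, and sod-3, the inducible one. The sod-3 gene (WBGene00004932) lies on chromosome X at 17092753 to 17094306, plus strand, with an exon length of 881 nt, in the Ensembl annotation of WBcel235, from which all positions here come. Its level was 0.661, 1.09 and 1.39 CPM in N2_AL and 0.617, 0.497 and 0.996 in N2_DR. In the mutant it read 3.598, 4.04 and 3.39 CPM on AL and 2.34, 1.47 and 1.35 on DR. These rest on 13 to 25 counts per N2 library and on 25 to 105 per sek-1(km4) library. The mutant libraries were above those of N2 on each diet with no overlap. On AL the gene was 3.64-fold higher in sek-1(km4) (95% interval 2.16 to 6.15; log2 fold change 1.86 ± 0.35 SE, edgeR adjusted p = 0.00329). On DR it was 2.45-fold higher (1.45 to 4.15; log2 1.29 ± 0.35, edgeR adjusted p = 0.0130). The DR call was lost without N2_DR replicate 2 (log2 1.08, edgeR adjusted p = 0.0581) or without sek1_DR replicate 1 (0.99, adjusted p = 0.0596). Within the mutant the 3 DR libraries were all below the 3 AL libraries, at a log2 fold change of −1.09 ± 0.32 that did not pass (edgeR adjusted p = 0.172, DESeq2 adjusted p = 0.0365).

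The sod-2 gene (WBGene00004931, chromosome I, 8434550 to 8435807, plus strand, 802 nt of exon) went the other way by strain. It read 68.9, 71.5 and 127 CPM in N2_AL and 71.0, 69.1 and 92.2 in N2_DR. Libraries of the mutant read 62.3, 52.8 and 58.8 CPM on AL and 42.5, 45.2 and 48.7 on DR. On DR it was lower in sek-1(km4) by −0.77 ± 0.23 on the log2 scale (edgeR adjusted p = 0.0209), with no overlap, a call lost without sek1_DR replicate 1 (adjusted p = 0.0610). On AL the libraries did not overlap either, and the difference of −0.62 ± 0.23 did not pass (edgeR adjusted p = 0.0855). Without N2_AL replicate 3 it was −0.28. As a share of the counts of both manganese enzymes, sod-3 made up 0.95%, 1.497% and 1.09% in N2_AL and 0.86%, 0.71% and 1.07% in N2_DR. The share was 5.46%, 7.10% and 5.46% in sek1_AL and 5.23%, 3.16% and 2.69% in sek1_DR. A share within 1 library does not depend on how libraries are scaled to each other. The 95% Wilson intervals, which cover counting error only, reached at most 2.33% in N2_AL against at least 4.40% in sek1_AL, and at most 1.57% in N2_DR against at least 1.83% in sek1_DR.

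Copper and zinc enzymes are encoded by sod-1 (the main cytosolic form), sod-5 (a minor cytosolic form) and sod-4 (extracellular). The sod-5 gene (WBGene00007036, chromosome II, 4417633 to 4419130, plus strand, 706 nt) had the fewest counts of all members, 5 to 13 per N2 library and 27 to 48 per sek-1(km4) library. It read 0.244, 0.457 and 1.21 CPM in N2_AL and 0.220, 0.306 and 0.478 in N2_DR. For the mutant the levels were 0.952, 1.15 and 1.25 CPM on AL and 1.62, 1.72 and 2.10 on DR. On DR, where the strains did not overlap, it was 5.31-fold higher in the mutant (95% interval 2.57 to 10.99; log2 2.41 ± 0.48, edgeR adjusted p = 0.00281). That was the largest change of any member in any comparison that passed. In a fit of the N2 libraries alone sod-5 did not pass the count filter. It was thus kept for testing through the mutant libraries, where it is higher. On AL the value was 0.96 ± 0.48 (edgeR adjusted p = 0.181), with N2_AL replicate 3 inside the mutant range, and without that library 1.73 (adjusted p = 0.00458).

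The sod-4 gene (WBGene00004933, chromosome III, 9496884 to 9500375, minus strand, 1306 nt) had a higher mean level per kb of exon than sod-5 in all 4 groups. Its libraries read 5.57, 4.86 and 10.7 CPM in N2_AL and 6.61, 6.00 and 5.297 in N2_DR. In sek-1(km4) it read 6.74, 8.58 and 10.2 CPM on AL and 10.6, 13.7 and 12.4 on DR. On DR all mutant libraries were above all wild type ones, 2.05-fold in the fit (1.34 to 3.14; log2 1.04 ± 0.28, edgeR adjusted p = 0.0135). On AL the difference was 0.29 ± 0.28 (edgeR adjusted p = 0.509), or 0.69 (adjusted p = 0.0160) without N2_AL replicate 3. The end of sod-4 shares 175 exon bases with ctr-9 on the other strand, a gene at mean levels of 165 to 205 CPM, and the strand setting of the counting is not given, so the 2 genes' reads there cannot be told apart. Between strains on DR, ctr-9 differed by 0.20 ± 0.15 (edgeR adjusted p = 0.2996). With genes on the other strand, sod-3 shares 65 exon bases (C08A9.3) and 24 (lido-1), and sod-2 shares 21 (dpt-1). Likewise ctl-2 shares 65 (Y54G11A.7), and sod-1 shares 85 with C15F1.13, which had 0 counts. The part of these overlaps in the members' values was not tested.

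The main cytosolic enzyme gene, sod-1 (WBGene00004930, chromosome II, 6972706 to 6973887, minus strand, 720 nt), did not pass in any comparison with all libraries. It read 106, 101 and 212 CPM in N2_AL and 98.2, 95.3 and 113 in N2_DR. Its mutant levels were 91.3, 83.2 and 90.3 CPM on AL and 67.6, 73.4 and 74.8 on DR. Mutant libraries were below N2 libraries on each diet with no overlap, with log2 fold changes of −0.66 ± 0.25 on AL (edgeR adjusted p = 0.0923) and −0.51 ± 0.25 on DR (adjusted p = 0.127). Without N2_AL replicate 3 they were −0.23 (adjusted p = 0.102) and −0.57, which passed (adjusted p = 0.000134). DESeq2 put them at adjusted p = 0.0193 and 0.0199 with all libraries. Of the counts of both cytosolic enzymes, sod-5 made up 0.23%, 0.45% and 0.57% in N2_AL and 0.22%, 0.32% and 0.42% in N2_DR. In the mutant the share was 1.03%, 1.37% and 1.36% on AL and 2.34%, 2.29% and 2.73% on DR. On this measure N2_AL replicate 3 was below all mutant libraries, and the ranges of the 2 mutant groups did not meet each other or those of N2. The Wilson intervals were wide at these counts, reaching up to 0.97% in N2_AL and down to 0.71% in sek1_AL, and up to 0.74% in N2_DR against down to 1.73% in sek1_DR.

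The catalase genes stand next to each other on the minus strand of chromosome II, ctl-2 (WBGene00000831) at 14299556 to 14302027, ctl-1 (WBGene00000830) at 14303568 to 14306260 and ctl-3 (WBGene00013220) at 14307798 to 14310779. They are related copies, so 50-base reads may be split or dropped between them, and their separate values are uncertain. CTL-1 is the cytosolic and CTL-2 the peroxisomal enzyme. The ctl-1 gene read 47.6, 35.7 and 37.0 CPM in N2_AL and 55.2, 50.0 and 44.8 in N2_DR. In the mutant it read 40.1, 35.8 and 32.3 CPM on AL and 42.2, 29.3 and 26.3 on DR. On DR the mutant was lower with no overlap, by −0.62 ± 0.20 (edgeR adjusted p = 0.0307). The ctl-3 gene read 50.1, 45.0 and 30.6 CPM in N2_AL and 58.2, 47.7 and 42.0 in N2_DR. Libraries of the mutant read 43.2, 40.2 and 32.1 CPM on AL and 38.7, 30.8 and 27.02 on DR. It too was lower in the mutant on DR with no overlap (−0.61 ± 0.22, edgeR adjusted p = 0.0463). Both calls were fragile. Of 12 fits that each left out 1 library, 6 kept the call for ctl-1 and 3 kept it for ctl-3, with log2 fold changes between −0.86 and −0.49 over all alternatives run for either gene.

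The ctl-2 gene read 32.2, 27.3 and 11.8 CPM in N2_AL and 48.5, 48.5 and 41.3 in N2_DR. For the mutant the levels were 32.4, 28.6 and 30.2 CPM on AL and 44.0, 27.7 and 24.1 on DR. It was the 1 member whose N2 libraries did not overlap between diets, with the DR libraries higher by 0.95 ± 0.32 (edgeR adjusted p = 0.213), or 0.65 without N2_AL replicate 3. In limma voom with library weights the value was 0.71 (adjusted p = 0.00965). Of all catalase counts, ctl-2 took 24.8%, 25.2% and 14.9% in N2_AL and 29.9%, 33.2% and 32.3% in N2_DR. It took 28.0%, 27.4% and 31.9% in sek1_AL and 35.3%, 31.6% and 31.1% in sek1_DR. The N2_DR libraries were above all N2_AL libraries, while the 2 mutant groups overlapped. All sek1_AL libraries were above all N2_AL libraries as well, and the strains overlapped on DR. The 3 genes summed to 79.3 to 130 CPM in N2_AL, 128 to 162 in N2_DR, 94.7 to 116 in sek1_AL and 77.4 to 125 in sek1_DR, a sum that does not depend on how reads were divided among the copies, though reads dropped for matching several of them would be missing from it.

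**Figure D2:**
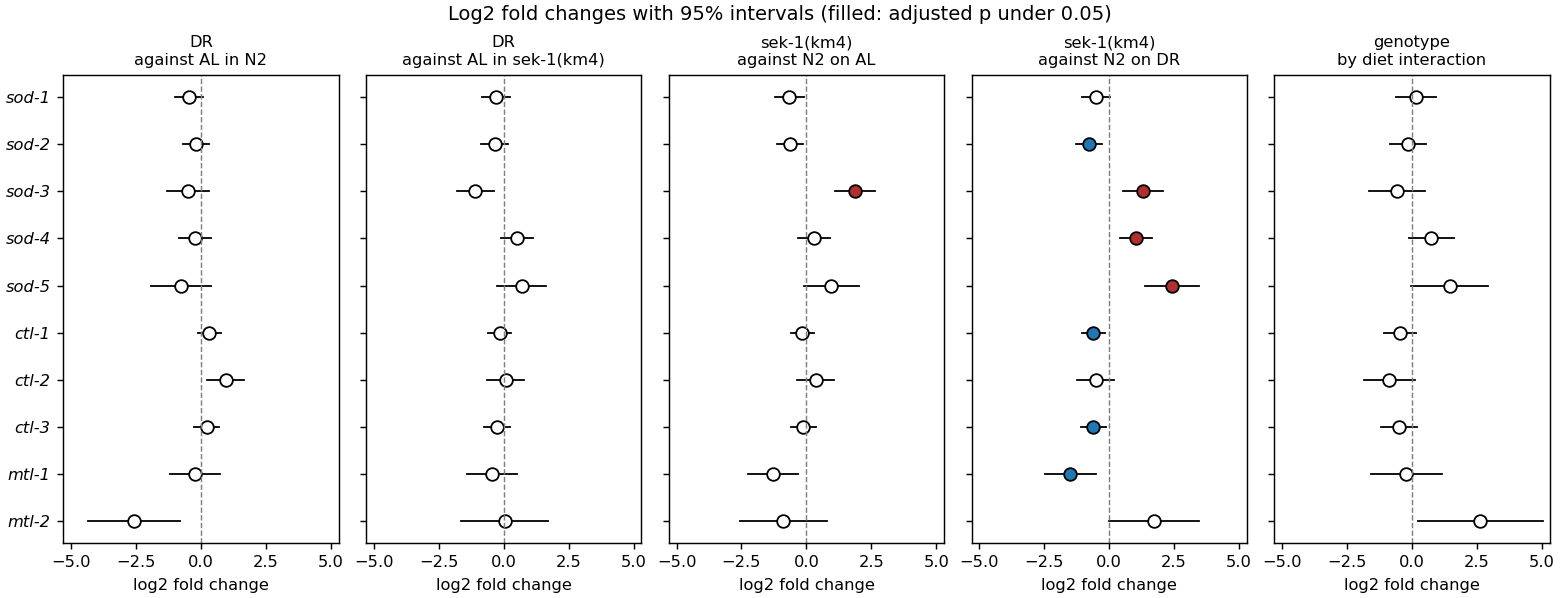
Log2 fold changes of the 10 members in the 5 comparisons (diet within each strain, strain within each diet, and their interaction), with 95% intervals from edgeR and filled points for an adjusted p under 0.05. The 7 filled points of the strain comparison on DR lie on both sides of 0, and sod-3 is the filled one on AL.

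The metallothionein gene mtl-2 had the largest SE of all members in every comparison. The mtl-1 gene (WBGene00003473, chromosome V, 6691371 to 6691863, minus strand) read 33.8, 33.0 and 114 CPM in N2_AL and 35.9, 41.3 and 76.5 in N2_DR. In sek-1(km4) it read 24.6, 21.8 and 27.5 CPM on AL and 15.9, 18.9 and 19.7 on DR. Mutant libraries were below wild type ones on each diet with no overlap. On DR mtl-1 fell to 0.354-fold of N2 (95% interval 0.180 to 0.699; log2 −1.50 ± 0.45, edgeR adjusted p = 0.0210). The call was lost without N2_DR replicate 3 (log2 −1.17, adjusted p = 0.0535), sek1_DR replicate 1 (−1.42, 0.0636) or sek1_DR replicate 3 (−1.56, 0.0520). On AL the difference was −1.28 ± 0.45 (edgeR adjusted p = 0.0678), and −0.44 without N2_AL replicate 3.

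The mtl-2 gene (WBGene00003474, chromosome V, 14018270 to 14018673, minus strand) encodes the other metallothionein, best known for its induction by cadmium in the intestine. Its libraries read 10.2, 12.4 and 104 CPM in N2_AL and 5.42, 4.85 and 10.7 in N2_DR. Its mutant levels were 15.03, 17.2 and 35.6 CPM on AL and 13.6, 22.4 and 34.1 on DR. On DR the mutant libraries were all above the wild type ones, at 1.74 ± 0.79, which did not pass (edgeR adjusted p = 0.102; 3.33-fold, 95% interval 1.00 to 11.1). It passed without N2_AL replicate 3 (1.66, edgeR adjusted p = 0.0104), with exon length offsets (1.81, adjusted p = 0.00586), with only the libraries compared (1.75, adjusted p = 0.00685) and in limma voom with library weights (adjusted p = 6.8e-06). It did not pass with DESeq2 (adjusted p = 0.0554), RLE scaling (edgeR adjusted p = 0.108) or no filter (edgeR adjusted p = 0.269). Of 12 fits that each left out 1 library, 1 gave the call. Between strains on AL the value was −0.89 ± 0.77 with all libraries, and its sign turned without N2_AL replicate 3 (0.99, adjusted p = 0.151). Between diets in N2 it was −2.58 ± 0.81 (edgeR adjusted p = 0.183), and −0.67 without that library.

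Within the pair, mtl-2 made up 23.2%, 27.3% and 47.7% of the counts in N2_AL and 13.1%, 10.5% and 12.3% in N2_DR. It made up 37.9%, 44.0% and 56.4% in sek1_AL and 46.1%, 54.2% and 63.4% in sek1_DR. The N2_DR libraries were thus the lowest of all 12, with Wilson intervals reaching at most 15.4% against at least 20.95% in N2_AL. The means were 11.96% ± 1.33 (SD, n = 3) in N2_DR and 54.6% ± 8.65 in sek1_DR. The genes have similar exon lengths, 373 and 347 nt. The shares were chosen after the levels had been seen and are given as descriptions.

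**Figure D3:**
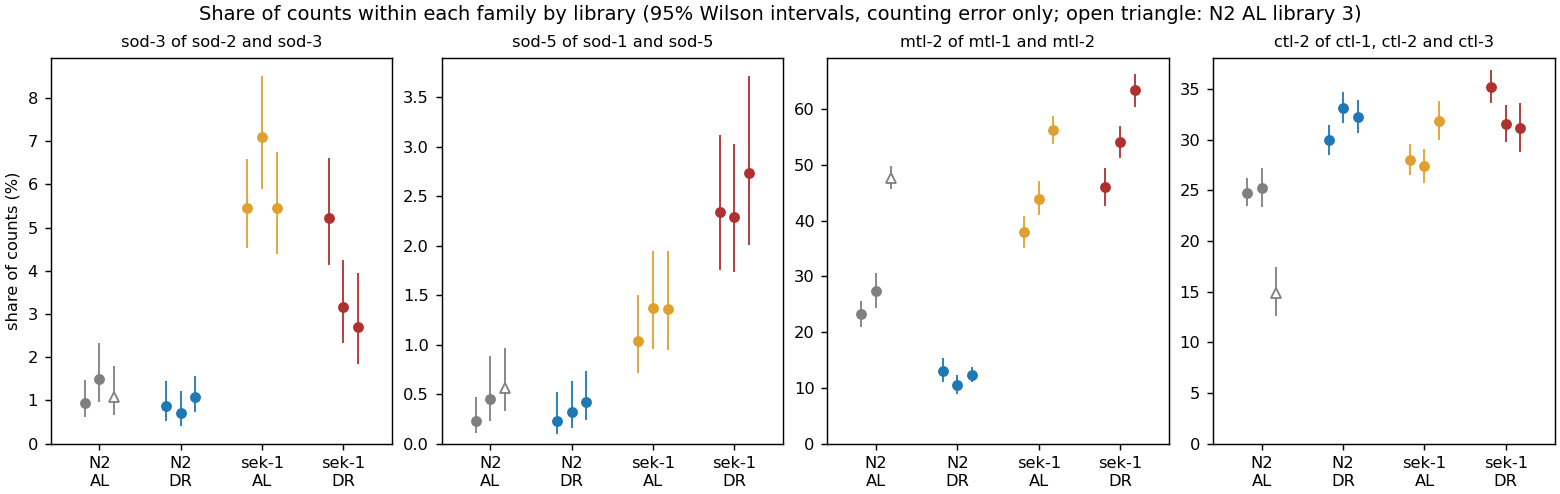
Share of mtl-2 in the counts of both metallothionein genes, of sod-3 in those of sod-2 and sod-3, of sod-5 in those of sod-1 and sod-5, and of ctl-2 in those of the 3 catalase genes, in percent, by library with 95% Wilson intervals. N2_DR has the lowest mtl-2 shares (10.5% to 13.1%), and all sek-1(km4) libraries are above all N2 libraries for sod-3 and sod-5.

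Diet in the wild type asked whether 3 days of diluted food changed these genes. None of the 10 passed with edgeR, against 1.09% of all genes tested (0.363% higher and 0.725% lower). At an unadjusted p under 0.05 there were 2 members, mtl-2 and ctl-2, and 2050 genes in all. DESeq2 called mtl-2 among 466 genes in all, and limma voom called ctl-2 among 1050. The median log2 fold change was −0.22 over the members and −0.06 over all genes tested. For sod-3, the DAF-16 reporter, the value was −0.51 ± 0.37 (95% interval −1.32 to 0.30), and for mtl-1 −0.23 ± 0.44 (−1.18 to 0.73), or 0.64 without N2_AL replicate 3. Besides mtl-2 (−2.58) and ctl-2 (0.95), the members lay between −0.75 and 0.32, and without that library between −0.25 (sod-3) and 0.64 (mtl-1). Libraries did not overlap for 1 member, beside 15.7% of all genes.

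Diet in the mutant likewise gave no call among the 10 members, against 0.452% of all genes. With edgeR 1 member, sod-3, and 1964 genes had an unadjusted p under 0.05. DESeq2 called sod-3 among 634 genes in all, and limma voom called 6 members among 6334 genes in all. Libraries of 6 members did not overlap between diets (36.3% of all genes did not). Of these, sod-1, sod-2, sod-3 and mtl-1 had lower DR libraries and sod-4 and sod-5 higher ones. Besides sod-3 (−1.09), the members lay between −0.44 and 0.70. Leaving out N2_AL replicate 3, which is no part of this comparison but enters the shared estimate of the spread, gave 2239 calls over all genes and 3 among the members, for sod-1 (−0.34), sod-2 (−0.40) and sod-3 (−1.12).

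Between strains on AL, 1 member passed, sod-3, against 17.5% of all genes (12.7% higher, 4.72% lower). It passed in all 21 alternatives, with log2 fold changes of 1.604 to 2.19, and 2.12 without N2_AL replicate 3. The catalase genes were at −0.15 (ctl-1), 0.35 (ctl-2) and −0.12 (ctl-3), and without that library at −0.21, 0.028 and −0.31. For 4 members the libraries did not overlap, sod-3 higher and sod-1, sod-2 and mtl-1 lower in the mutant, beside 35.6% of all genes. With exon length offsets 5 members passed, sod-3 and sod-5 higher and sod-1, sod-2 and mtl-1 lower, and the split over all genes moved from 1860 higher and 690 lower to 2318 higher and 1683 lower. With DESeq2 the split was 1936 higher and 1730 lower.

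Between strains on DR, 7 members passed, beside 39.5% of all genes. Higher in the mutant were sod-3, sod-4 and sod-5 (24.9% of all genes), and lower were sod-2, ctl-1, ctl-3 and mtl-1 (14.6%). The other 3 had log2 fold changes of −0.51 (sod-1), −0.53 (ctl-2) and 1.74 (mtl-2). Leaving out N2_AL replicate 3, which is no part of this comparison either, gave calls for all 10 members and for 9590 genes in all. Libraries did not overlap for 9 members, beside 68.8% of all genes. The calls for sod-4 and sod-5 held in all 21 alternatives, at 0.88 to 1.12 and at 2.18 to 2.67. The median over the members was −0.52, and 0.17 over all genes. Over all genes the calls split into 3631 higher and 2137 lower, and with DESeq2 into 3311 and 2998.

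**Figure D4:**
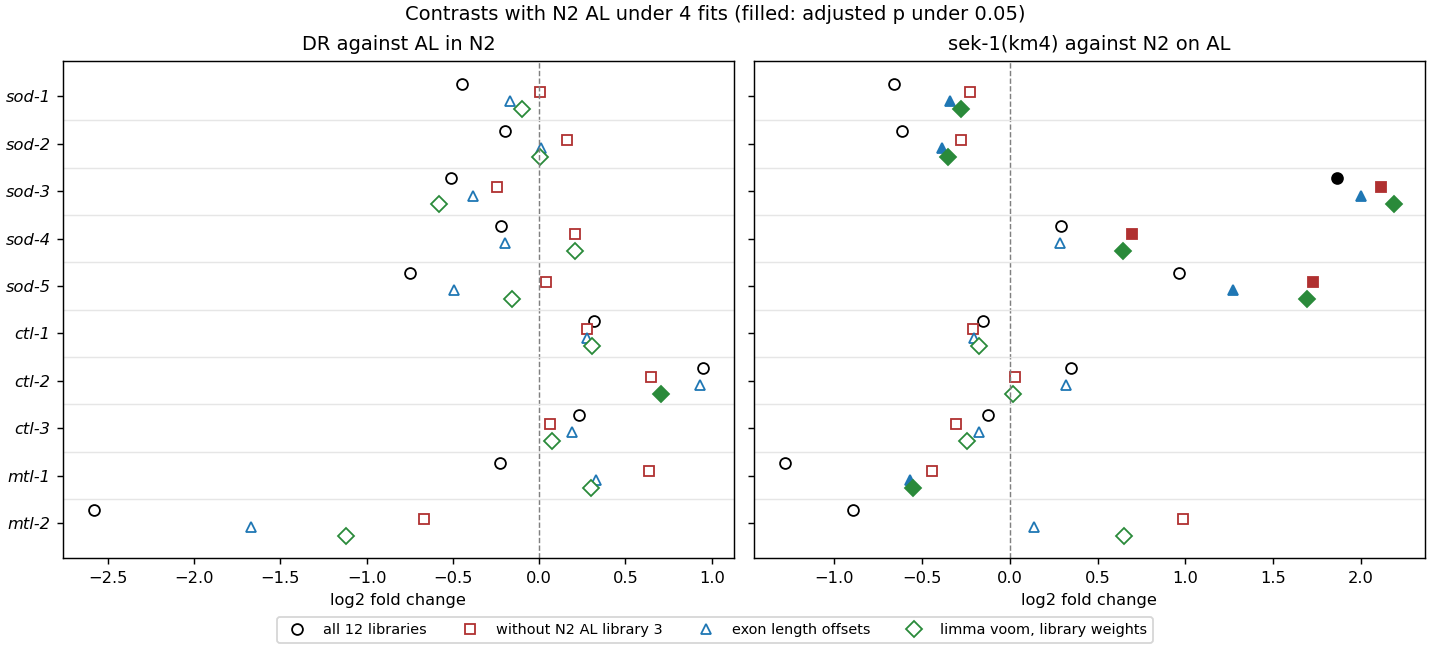
Log2 fold changes of the members in the comparisons that use N2_AL, DR against AL in N2 (left) and sek-1(km4) against N2 on AL (right), under 4 fits: all 12 libraries, without N2_AL replicate 3, exon length offsets, and limma voom with library weights. Filled symbols have an adjusted p under 0.05. On the right sod-3 is filled in all 4 fits, and mtl-2 moves from −0.89 to 0.99 without N2_AL replicate 3.

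Whether the diet difference itself depended on strain was tested as an interaction. None of the 10 members passed, and 0.00% of all genes did (edgeR, 0 of 14611, with 1302 genes and 1 member, mtl-2, at an unadjusted p under 0.05; DESeq2 called 33 genes and no member, and limma voom called 1365 genes, ctl-2 and mtl-2 among them). The mtl-2 estimate was 2.63 ± 1.10 (95% interval 0.22 to 5.04, edgeR adjusted p = 0.551), falling to 0.67 without N2_AL replicate 3. For sod-5 it was 1.45 ± 0.68 (edgeR adjusted p = 0.556) and 0.61 without that library. The other 8 members lay between −0.88 (ctl-2) and 0.75 (sod-4), and without it between −1.12 (mtl-1) and 0.28 (sod-4). The comparisons share groups, so the calls for strain on one diet and not on the other are not a test of a difference between diets.

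Across the 12 libraries the members fell into sets that moved alike, described here by Pearson's r of log2 CPM. The libraries share depth, group and the length pattern above. The largest r were 0.98 for sod-2 and mtl-1, 0.96 for sod-1 and sod-2, and 0.93 for sod-1 and mtl-1. Without N2_AL replicate 3 (11 libraries) these were 0.96, 0.97 and 0.90. For sod-4 and sod-5 r was 0.87, and 0.86 without that library. For ctl-1 and ctl-3 it was 0.89 and 0.92. Between mtl-1 and mtl-2 r was 0.19 over 12 libraries and −0.55 over 11. Between sod-1 and sod-4 it went from −0.23 to −0.89.

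Among the 7919 genes that averaged 5 CPM or more, those with the highest r to sod-3 were asm-3 (r = 0.92), col-3 (0.92) and ttr-17 (0.92), and each stayed among the first 5 without N2_AL replicate 3. For sod-4 W05H7.1 came first with and without that library (r = 0.98 and 0.98), followed by C08F1.6 (0.95) and F13C5.2 (0.94), which were at ranks 80 and 40 without it. For sod-5 ttr-14 (0.96), trap-2 (0.96) and che-3 (0.96) led, and for mtl-2 R12C12.5 (0.97), skr-12 (0.96) and Y106G6D.2 (0.96). The leading genes for sod-1 were F29A7.6, dhs-11 and iscu-1 (r = 0.99 each). For sod-2 they were C24D10.6, suds-3 and coa-7 (0.99 each), and for mtl-1 F28C6.8, F58H1.3 and T09F3.4 (0.99 each). These 9 genes have exon lengths of 544 to 860 nt. For the catalases they were paic-1, T21H3.1 and alh-1 (0.93, 0.91 and 0.90 to ctl-1), adk-1, ntl-9 and dnj-24 (0.95, 0.93 and 0.92 to ctl-2), and glh-1, cars-1 and F55D12.5 (0.97 each to ctl-3). Most of these ranks were lower without N2_AL replicate 3, where the 3 genes named held ranks 29 to 41 for sod-5, 13 to 26 for ctl-3 and 4 to 7 for mtl-2. They held ranks 7 to 20 for sod-1, 3 to 23 for sod-2, 4 to 18 for mtl-1, 2 to 14 for ctl-1 and 2 to 28 for ctl-2. The gene glh-1, one of the germ line markers, moved from rank 1 to rank 16 for ctl-3.

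Other genes of peroxide and thiol chemistry, a list of 29 of which 27 were tested, had no call for diet in either strain. Between strains 3 rose and 1 fell on AL, and 3 rose and 4 fell on DR, beside 17.5% of all genes called on AL and 39.5% on DR, with a median of −0.31 on DR beside 0.17 over all genes. The counts without N2_AL replicate 3 were 4 up and 3 down on AL and 3 up and 10 down on DR. Over all genes that fit called 5458 on AL (3461 higher, 1997 lower) and 9590 on DR (5131 higher, 4459 lower). The glutathione peroxidase gene gpx-3 rose on both diets (1.83 ± 0.37 and 2.16 ± 0.35, edgeR adjusted p = 0.00564 and 0.00093), as did the thioredoxin gene trx-3 (1.94 ± 0.48 and 2.30 ± 0.47). In N2 these genes lay near the limit that a count of 0 allows. Mean levels were 0.285 CPM (N2_AL) and 0.320 (N2_DR) for gpx-3, and 0.493 and 0.398 for trx-3. The glutathione synthetase gene gss-1 fell on both diets (−0.47 ± 0.15 and −0.97 ± 0.15). The mitochondrial peroxiredoxin gene prdx-3 fell on DR, from 74.3 ± 6.74 CPM in N2_DR to 45.6 ± 2.16 in sek1_DR (−0.70 ± 0.14, edgeR adjusted p = 0.00310). The largest differences by diet, not called, were those of glrx-10 in N2 (−0.92 ± 0.45, edgeR adjusted p = 0.384) and of gpx-5 in the mutant (−0.75 ± 0.18, adjusted p = 0.109), and gpx-5 was higher in the mutant on AL (0.65 ± 0.18, adjusted p = 0.0261). For the interaction it was gpx-8 (1.26 ± 0.64, adjusted p = 0.572). The glrx-10 libraries of N2 overlapped between diets, at 59.3 ± 51.9 CPM in N2_AL and 31.2 ± 6.27 in N2_DR.

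Of 18 tested identifiers for metal handling, 2 rose and 3 fell in the mutant on AL, and 3 rose and 1 fell on DR, beside the same 17.5% and 39.5% of all genes, with none called for diet. Both identifiers that carry the symbol numr-1, a cadmium-responsive gene, rose on AL (3.11 ± 0.32 and 3.02 ± 0.33) and on DR (2.60 ± 0.31 and 2.56 ± 0.32). These copies are nearly identical, which leaves their separate values uncertain. The ferritin gene ftn-1 fell on both diets (−1.14 ± 0.24 and −0.88 ± 0.24), and the zinc transporter gene cdf-2 rose on DR (0.90 ± 0.24). The gene cdr-2, of a family named for its response to cadmium, fell on AL (−1.38 ± 0.32). The largest differences by diet, not called, were those of cdr-2 in N2 (−0.95 ± 0.31, edgeR adjusted p = 0.199) and of smf-3 in the mutant (1.29 ± 0.42, adjusted p = 0.207), and for the interaction that of cdr-4 (1.24 ± 0.47, adjusted p = 0.547). Without N2_AL replicate 3 the DR counts were 5 up and 5 down, beside 9590 genes called in all.

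All 4 genes of the dual oxidase set, an enzyme that makes hydrogen peroxide for the cuticle and its partners, rose in the mutant on DR, and 3 of them on AL, beside 24.9% and 12.7% of all genes higher, with median log2 fold changes of 1.24 and 1.10 beside 0.17 and 0.02 over all genes. On DR these were tsp-15 (1.48 ± 0.22), duox-2 (1.50 ± 0.25), bli-3 (0.78 ± 0.24) and mlt-7 (1.00 ± 0.34, edgeR adjusted p = 0.0366). None was called for diet, where the largest values were 0.48 ± 0.35 for mlt-7 in N2 and 0.48 ± 0.24 for duox-2 in the mutant, nor for the interaction (duox-2, 0.50 ± 0.36).

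Among 13 regulators, pmk-1 rose in the mutant on AL and DR (0.71 ± 0.17 and 0.65 ± 0.17), as did the intestinal GATA factor gene elt-2 (1.54 ± 0.34 and 1.27 ± 0.32), and pqm-1 rose on DR (1.05 ± 0.18), so that 2 were higher on AL and 3 on DR beside 12.7% and 24.9% of all genes. The other 10, daf-16 and skn-1 among them, were not called on DR, and none of the 13 was called for diet. Without N2_AL replicate 3, 5458 genes in all were called between strains on AL and 9590 on DR. Of the regulators, 2 rose and 2 fell on AL and 4 rose and 3 fell on DR in that fit. The largest differences by diet were those of pqm-1, whose libraries did not overlap in either strain, lower on DR in N2 (−0.59 ± 0.18, edgeR adjusted p = 0.168) and higher on DR in the mutant (0.48 ± 0.18, adjusted p = 0.270). Its interaction of 1.07 ± 0.26 did not pass (adjusted p = 0.531). Of 10 tested identifiers of other genes that rise when insulin signalling is low, 2 were higher and 5 lower in sek1_DR than in N2_DR, and 1 was lower on AL, beside 39.5% of all genes called on DR and 17.5% on AL. Without N2_AL replicate 3 the calls over all genes were 5458 on AL, 9590 on DR and 13 for the interaction. In this list that fit gave 2 up and 4 down on AL, 2 and 5 on DR, and 1 down for the interaction. Those that fell on DR were cyp-35B1 (−3.18 ± 0.40), lys-7, lea-1, nnt-1 and sip-1, and those that rose were both identifiers of hsp-16.1 (1.61 ± 0.48 and 1.63 ± 0.53), near-identical copies. Diet called nnt-1 (1.18 ± 0.22, higher) and dod-3 (−1.70 ± 0.33, lower) in N2 and cyp-35B1 (−2.94 ± 0.40, lower) in the mutant, beside 1.09% and 0.452% of all genes. The largest interaction in this list was that of cyp-35B1 (−2.66 ± 0.52, edgeR adjusted p = 0.458).

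Leaving out N2_AL replicate 3 also added calls for diet in the mutant, to 3 down for thiol and peroxide genes, 1 up and 3 down for metal handling, 1 down for regulators, and 2 up and 3 down for genes of low insulin signalling. Over all genes that fit called 2239 for diet in the mutant, 727 higher and 1512 lower, against 66 with all libraries.

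Summed tissue markers differed by strain as well. The summed level of 9 germ line markers was 4034 to 4582 CPM in N2_DR and 1962 to 2711 in sek1_DR. That of 4 pharynx markers was 10.4 to 19.3 and 36.6 to 37.5 CPM. Those of 6 neuron markers were 173 to 177 and 199 to 228 CPM. On AL, 4 hypodermis markers summed to 83.0 to 135 CPM in N2 and 182 to 238 in the mutant, and the germ line sums overlapped, at 2226 to 4708 and 2457 to 3687 CPM. The germ line medians on AL were 4436 CPM in N2 and 3422 in the mutant. Only the lowest N2_AL library was not above all mutant libraries. The 8 intestine markers summed to 336 to 443 CPM in N2_AL and 514 to 664 in sek1_AL, and overlapped between strains on DR (405 to 862 and 366 to 1073 CPM). Sums of the 6 body wall muscle markers overlapped between strains on both diets, those of pharynx and neurons overlapped on AL, and those of hypodermis on DR. No marker was at 0 in any group. The part of these differences in the members' values was not tested.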

How the data were processed

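Poly(A) RNA-seq (50 bp single-end) of 12 whole-animal libraries was used as a deposited table of whole-number read counts per gene, not normalized, which the authors made with featureCounts (Subread), as the submitters' processing notes name it. Not given in the sources used here are the aligner, genome build, strand setting and handling of reads that match several genes. All 12 count columns name a sample, 0 lines name no gene, and no libraries are identical. Of 46748 identifiers, 43693 had a symbol, and 46449 are in the Ensembl 115 annotation of WBcel235, used for lengths and positions.

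Counts were tested with edgeR 4.0.16 (R 4.3.3): TMM scaling, filterByExpr with a minimum count of 10, and 1 robust quasi-likelihood fit of all 12 libraries with a mean per group and 5 contrasts. A gene passed at a Benjamini-Hochberg adjusted p under 0.05 over 14611 genes. SE is the absolute log2 fold change over the square root of F. Levels are TMM-scaled CPM. The fit was tested on simulated data. Alternatives were RLE scaling, no filter, a replicate block, exon length offsets (a lowess of each library's log2 levels on log2 exon length), only the libraries compared, DESeq2 1.42.0, limma 3.58.1 voom with library weights, and each library left out. Chosen after seeing the data were leaving out every library numbered 3, and length offsets with N2_AL replicate 3 left out.

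The members and lists were chosen with earlier results of these data known. All members are named. Of other genes, the rule names the 3 with the highest r to each member and, per list and contrast, up to 4 with the smallest p among those called or, with none called, the 1 with the largest change. Outside that rule, lea-1, sip-1 and the other hsp-16.1 identifier on DR were named after their values were seen, to complete a count. Symbols cdr-5, numr-2 and hsp-16.49 were not matched. No sequences were used.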

Additional observations from a re-analysis of the deposited data

How the results depend on the processing

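Of 439 member results under settings other than leaving out 1 library, 351 kept direction and side of the threshold, 64 gained a call, 2 lost one and 22 changed sign; of 600 with 1 library left out, 547, 12, 21 and 20 did. The causes were not tested. Members called, 0 for DR in N2, became 1 with DESeq2, with voom and without every library numbered 3, and stayed 0 to 0 with 1 library left out. For DR in the mutant 0 became 1 with only the libraries compared and with DESeq2, 6 with voom, 5 without every library numbered 3, 5 with length offsets and N2_AL replicate 3 left out, and 0 to 3 with 1 library left out. For strain on AL, 1 became 2 with no filter, 5 with length offsets, 4 with DESeq2, 6 with voom, 6 without every library numbered 3, 6 with length offsets and N2_AL replicate 3 left out, and 1 to 3 with 1 left out. For strain on DR, 7 became 4 to 10, with 4 without N2_DR replicate 2 or 3 or sek1_DR replicate 1 or 3. For the interaction 0 became 2 with voom and without every library numbered 3.

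Signs turned as follows. For DR in N2, exon length offsets gave 0.012 for sod-2 and 0.33 for mtl-1, voom gave 0.0035 for sod-2, 0.21 for sod-4 and 0.30 for mtl-1, leaving out every library numbered 3 gave 0.26 for sod-4 and 0.21 for mtl-1, and length offsets with N2_AL replicate 3 left out gave 0.096, 0.20 and 0.46 for sod-2, sod-4 and mtl-1. For DR in the mutant, mtl-2 was −0.0006 with length offsets and −0.040 with N2_AL replicate 3 left out too, and ctl-2 was −0.030 with voom. For strain on AL, mtl-2 was 0.14 with length offsets, 0.65 with voom, 0.52 without every library numbered 3 and 0.92 with length offsets and N2_AL replicate 3 left out. For the interaction, sod-1 was −0.058 with no filter, −0.072 with length offsets, −0.14 with voom, and −0.21 without every library numbered 3 and with length offsets and N2_AL replicate 3 left out. With 1 library left out signs also turned for DR in N2 (sod-1 −0.60 to 0.0033, sod-2 −0.32 to 0.16, sod-4 −0.39 to 0.21, sod-5 −1.19 to 0.038, mtl-1 −0.48 to 0.64), DR in the mutant (ctl-2 −0.24 to 0.24, mtl-2 −0.33 to 0.46), strain on AL (ctl-1 −0.21 to 0.012, ctl-3 −0.31 to 0.042, mtl-2 −1.32 to 0.99) and the interaction (sod-1 −0.34 to 0.30, mtl-1 −1.12 to 0.035).

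The same-numbered libraries' deviations correlated at 0.12 to 0.39 (number 1), −0.07 to 0.14 (number 2) and 0.26 to 0.39 (number 3). Between libraries numbered 1 and 3 of different groups r was −0.39 to −0.15. The main fit had no replicate term, and whether the numbers mark a shared batch was not tested. With the replicate block 2 members passed for strain on AL, as mtl-1 joined (−1.08, edgeR adjusted p = 0.0360), and on DR mtl-2 passed (1.76, adjusted p = 0.0116). Over all genes the block gave 246, 183, 3046, 6651 and 1 calls against 159, 66, 2550, 5768 and 0, in the order DR in N2, DR in the mutant, strain on AL, strain on DR and interaction. In that order length offsets gave 255, 359, 4001, 7534 and 0, DESeq2 466, 634, 3666, 6309 and 33, voom 1050, 6334, 6942, 10914 and 1365, leaving out every library numbered 3 837, 4346, 6360, 9193 and 495, and length offsets with N2_AL replicate 3 left out 531, 3242, 6286, 9935 and 47. No filter gave 114 calls for DR in the mutant and 6 for the interaction, and only the libraries compared gave 0, 2161, 1187 and 8760. With 1 library left out the ranges were 24 to 406, 6 to 2239, 1531 to 5458, 3785 to 9590 and 0 to 13, with the highest each time without N2_AL replicate 3. RLE scaling moved the median of all genes for strain on DR by −0.10, and the members kept their signs and calls. Depth limits sod-3 and sod-5 most, at 5 to 25 counts per N2 library.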
